A study of Mus musculus with 8 samples.

Results

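HTT ChIP-seq peaks from mouse cortex were merged across 4 libraries wherever peaks on chromosomes 1 to 19 overlapped by 1 bp or more, and the regions that held a peak from each of the 4 libraries were kept. They numbered 256 of 153005 merged regions. Of the remainder, 139144 regions held a peak from 1 library, 11599 from 2 and 2006 from 3. The members made up 0.590% of the regions of the Htt+/+ untreated library, 0.642% of the Htt+/+ ASO library, 0.548% of the HttQ111/+ untreated library and 0.650% of the HttQ111/+ ASO library. The members were thus chosen by their measured peaks, and peak heights are given as a description without a test.

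The study asked where huntingtin (HTT) is found on chromatin, and whether this changes with the mutant allele or when HTT is lowered. Chromatin came from ipsilateral cortex of male mice, 4 months of age when the treated ones were injected, either wild type (Htt+/+) or HttQ111/+, a knock-in line carrying an expanded CAG tract in a single copy of the endogenous Htt gene. In each genotype an ASO group had received 500 µg of an antisense oligonucleotide against Htt RNA of either allele, injected once into a cerebral ventricle on one side, with tissue taken 4 weeks later, and the comparison group was untreated rather than given a control oligonucleotide. Every library used the anti-huntingtin antibody EPR5526 on cortices pooled from 3 mice according to the labels, and there was 1 library per group. No group therefore has a replicate error, and no test between libraries was run. The peak lists hold no expression values, so the tissue could not be checked against marker levels.

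HTT is a large scaffold protein with many binding partners, found in the cytoplasm and in the nucleus, and among its partners are transcription factors and chromatin regulators. ChIP-seq recovers DNA that lies close to the protein after crosslinking, whether HTT touches the DNA or is held there by a partner. Start sites of many genes lie in CpG islands, stretches rich in G, C and the dinucleotide CG that are mostly unmethylated and open. Open chromatin and repeats that are collapsed in the genome assembly both yield more reads in an input library, which is sheared chromatin without antibody, and peak callers set the ChIP reads against that input.

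The sequence under members of high rank is shown first, because base composition differed widely between the members and the regions of fewer libraries. Each run is the 100 bases centred on the mean of the 4 summits, read from mm9 on the + strand, with every CG dinucleotide in capitals. Regions were ranked by the lowest of their 4 fold enrichments, where fold enrichment is the scaled ChIP read pile-up at the summit over the local input background. Regions of high rank are given for start sites (chr19:6531763-6531862 and chr6:83059204-83059303), exons (chr7:5004749-5004848 and chr19:47327671-47327770), introns (chr4:146372294-146372393 and chr11:119036036-119036135) and intergenic sequence (chr3:8731504-8731603), named by the nearest or host gene.
Gm14964 (start site, inside Nrxn2): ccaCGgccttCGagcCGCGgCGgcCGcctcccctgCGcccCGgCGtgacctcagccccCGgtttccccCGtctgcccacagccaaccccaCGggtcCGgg
Mrpl53 (start site): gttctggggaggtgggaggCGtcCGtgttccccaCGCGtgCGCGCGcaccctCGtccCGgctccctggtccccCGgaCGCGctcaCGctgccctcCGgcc
Zfp580 (exon): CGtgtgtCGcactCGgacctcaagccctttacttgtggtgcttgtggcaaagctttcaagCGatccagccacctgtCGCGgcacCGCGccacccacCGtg
Neurl1a (exon): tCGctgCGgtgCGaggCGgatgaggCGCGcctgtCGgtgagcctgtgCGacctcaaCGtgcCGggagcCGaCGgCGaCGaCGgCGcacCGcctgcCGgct
Gm17452 (intron): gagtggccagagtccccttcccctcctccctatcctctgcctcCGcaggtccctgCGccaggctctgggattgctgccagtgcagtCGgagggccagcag
Tbc1d16 (intron): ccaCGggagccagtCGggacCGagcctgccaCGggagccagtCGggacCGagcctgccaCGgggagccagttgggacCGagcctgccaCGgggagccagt
SNORA17 nearest (intergenic): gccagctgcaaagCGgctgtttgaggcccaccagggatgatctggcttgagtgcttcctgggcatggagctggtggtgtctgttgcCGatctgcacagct

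The start-site and exon runs hold between 9 and 18 CG dinucleotides per 100 bases. The Tbc1d16 run holds 9 CG dinucleotides and is a short unit repeated in tandem. The Gm17452 run holds 3 and the SNORA17 run 2.

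Position was measured from the midpoint of each region to the nearest start site of a GENCODE vM1 gene. Of the 256 members, 126 (49.2%, 95% Clopper-Pearson interval 42.9 to 55.5) lay within 1 kb of a start site, 26 in exons, 32 in introns and 72 in intergenic sequence. The share at start sites was 7.52% among regions of 1 library, 19.4% among those of 2 and 41.8% among those of 3. The order was opposite for intergenic sequence, with 52.8% of regions of 1 library and 28.1% of members, and for introns, with 34.5% and 12.5%. Exons outside the start-site windows held 5.16% of regions of 1 library and 10.2% of members. Intervals on shares and medians cover counting error only, since there was 1 library per group.

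**Figure D1:**
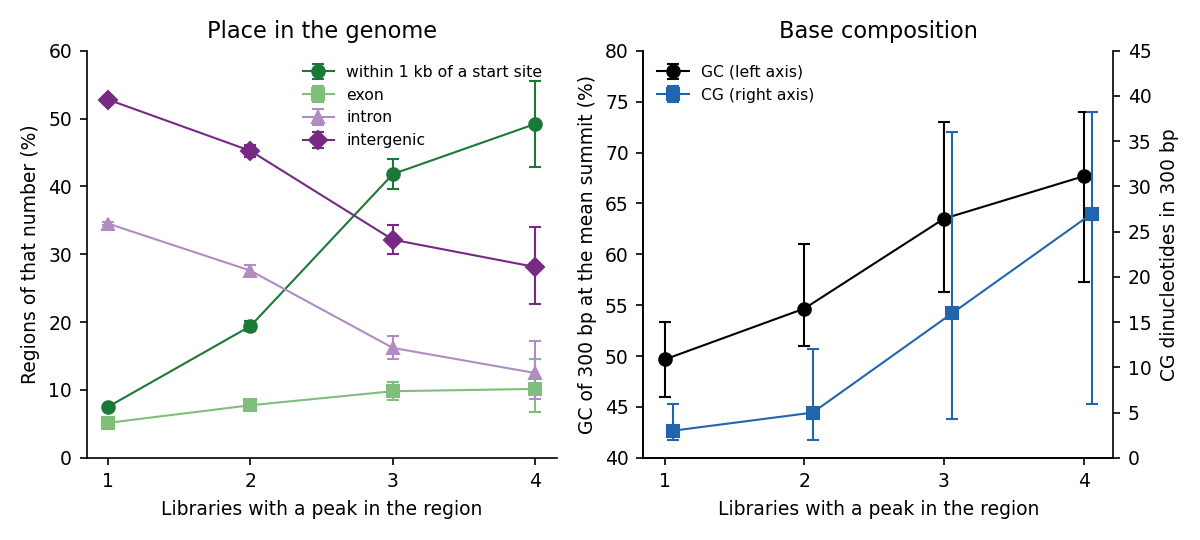
Position class (percent of regions) and base composition of merged regions by the number of libraries, from 1 to 4, that hold a peak in them; error bars are 95% Clopper-Pearson intervals on the left and quartiles on the right. With each added library the start-site share is higher, up to 49.2%, as are the GC content and CG count of 300 bp at the mean summit, with medians of 67.7% and 27 in the members.

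Most start-site members sat just inside the gene. The midpoint was downstream of the start in 98 of 126 (77.8%, interval 69.5 to 84.7), with a median position of +219 bp and quartiles of +58.8 and +395.5 bp. Among start-site regions of 3 libraries 78.1% were downstream, of 2 libraries 74.2% and of 1 library 62.6%. The 250 bp after the start held 42 members, which is 16.4% of all members against 2.17% of regions of 1 library, and the next 250 bp held 37, which is 14.5% against 1.16%. The 250 bp before the start held 20 members. The nearest start belonged to a protein-coding gene in 109 of the 126. The end of a protein-coding gene lay within 1 kb of 14 members (5.47%) and of 2.51% of regions of 1 library.

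**Figure D2:**
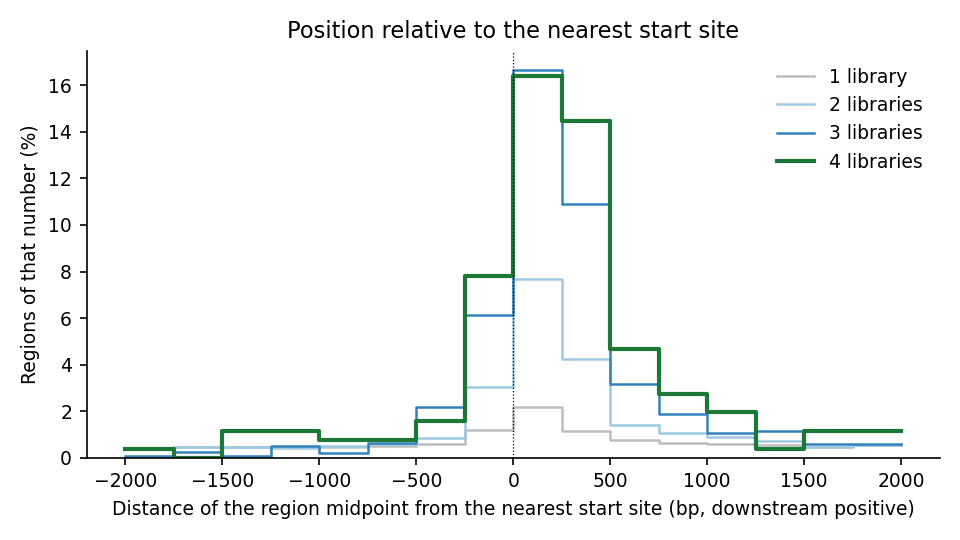
Distance in bp from the region midpoint to the nearest start site, in 250 bp bins, as percent of regions, for members and for regions of fewer libraries. Members are most frequent in the first 2 bins downstream of the start, at 16.4% and 14.5%, where regions of 3 libraries have 16.7% and 10.9%.

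The members were GC-rich. Median GC content was 65.7% (interval 62.5 to 67.4) over the merged region, against 50.4% in regions of 1 library, 54.4% in regions of 2 and 61.9% in regions of 3. Width differs between these sets, so the same was measured in 300 bp at the summit, where the median was 67.7% in members and 49.7% in regions of 1 library. The number of CG dinucleotides in that window had a median of 27 in members and 3 in regions of 1 library, and the observed number over that expected from base composition was 0.78 against 0.18. A CpG-island-like window was set here as at least 55% GC and a ratio of at least 0.6. It was found at 57.4% of members, 47.8% of regions of 3 libraries, 18.4% of regions of 2 and 3.68% of regions of 1. Start-site members alone had a median of 37 CG dinucleotides per 300 bp.

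Short motifs were counted on both strands in 200 bp at the summit. The GC box GGGCGG was present in 30.5% of members, 31.7% of regions of 3 libraries and 5.31% of regions of 1 library. CCAAT went the other way, with 8.20% against 25%, as did TATAAA with 0.781% against 6.01% and the CA repeat CACACACA with 1.56% against 5.01%. The E-box CACGTG was present in 3.12% of both sets. CGCATGCG, the core of the motif of NRF1, was present in 1 member (0.391%) and in 0.106% of regions of 1 library. CAGCAGCAG, the letters of the repeat that is expanded in Htt, was present in 17 members (6.64%), 7.03% of regions of 3 libraries, 4.35% of regions of 2 and 2.22% of regions of 1. None of the motifs contains another, and a match is a description of sequence, not of binding.

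The members fell into 3 kinds, defined after the values were seen. First, 30 had a local input background at least 20 times the genome-wide level, and of the remainder 140 had a CpG-island-like window as defined above and 86 had neither. The input background is the number of input reads expected at the summit, relative to the genome-wide level, as recovered from the deposited fold enrichments and p-values. The members nearest that cut had 16.5 and 21.6. The median background was 5.51 in the CpG-rich members, 75.2 in the high-input members and 1.21 in the others. Of the CpG-rich members 102 were at start sites and 21 in exons, whereas 43 of the 86 others were intergenic and 25 intronic. The share of regions with a background of 20 or more was 0.0208% among regions of 1 library, 0.138% of 2, 1.5% of 3 and 11.7% of the members. The input background thus differed with the number of libraries as position and GC did, and its part in those differences was not tested. Without the 30 high-input members, an alternative chosen after seeing the data, 50.9% of the other 226 lay at start sites and their median GC content was 67.0%.

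The peaks rest on few reads. The libraries held 39420 to 46749 peaks on these chromosomes, at a recovered depth of 1.10 to 1.36 ChIP reads per kb of genome. Recovered whole reads at the summit had medians of 7, 8, 7 and 8 in members, in the order Htt+/+ untreated, Htt+/+ ASO, HttQ111/+ untreated and HttQ111/+ ASO, which is the order of every set of 4 values below. The median over all regions was 3 in each library. CpG-rich members had medians of 8, 9, 8 and 8 reads, high-input members 56, 59, 56 and 50, and the others 3, 4, 3.5 and 4. The lowest library had only 2 or 3 reads in 75 members, 42 of them intergenic and 18 intronic, against 12 of the 126 at start sites. In 55 members the highest peak of 1 or more libraries had a q-value of 0.01 or more. At so few reads, counting chance alone changes the reads of a peak, and its part was not tested. Where fewer reads do reflect HTT, they can mean less of it at the site in each cell or fewer cells with HTT there. Pooled cortex does not tell these apart.

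**Figure D3:**
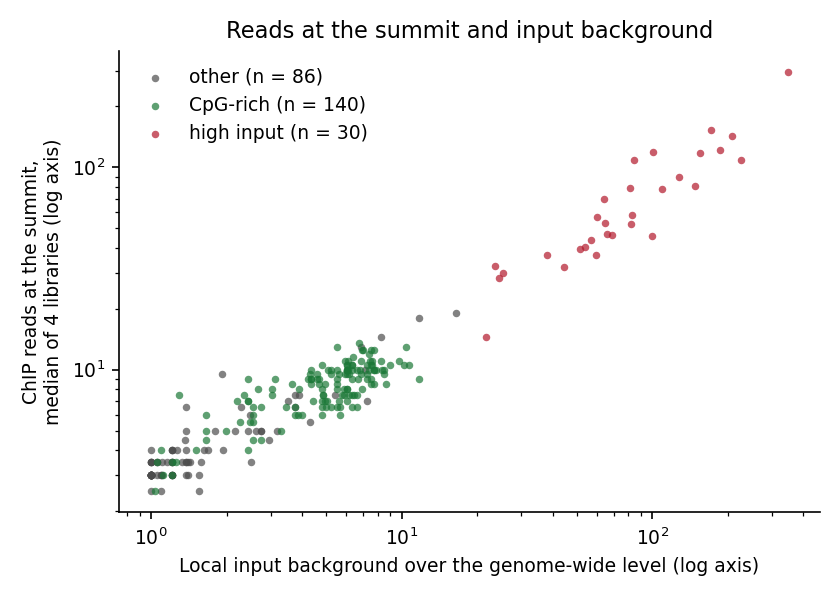
Recovered ChIP reads at the summit (median of the 4 libraries) against local input background relative to the genome-wide level, both on log axes, for the members. The high-input members stand apart at a median background of 75.2, while CpG-rich members lie around 5.51 and the others around 1.21.

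The members were not the highest peaks of their libraries by fold enrichment. Median fold enrichment was 5.01, 5.04, 5.45 and 3.81 in members, and 5.09, 4.96, 5.32 and 4.41 over all regions of the same libraries. Ranked among all regions of its library, the median member stood at percentile 48.8, 56.6, 53.7 and 29.7. By kind, the CpG-rich members had medians of 4.97, 5.12, 5.51 and 3.71, the others 5.57, 5.36, 6.01 and 4.41, and the high-input members 3.06, 3.03, 3.12 and 1.90. The kind with most reads thus had the lowest fold enrichment, and its input background, the denominator of the ratio, was the highest.

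The start-site member of highest rank was at chr19:6531509-6532157, 45 bp upstream of the start of the noncoding transcript Gm14964 and inside Nrxn2, which encodes a presynaptic cell adhesion molecule. Its fold enrichments were 7.30, 7.34, 6.03 and 6.25, from 11, 12, 7 and 9 reads. The 4 values lay close together, and the background there was 4.36. Mrpl53, a protein of the mitochondrial ribosome, had 9.45, 9.21, 6.53 and 5.49 at chr6:83059103-83059577, 226 bp inside the gene. Both HttQ111/+ libraries were below both Htt+/+ libraries, on 8, 9, 5 and 7 reads. The region at Ahr, a ligand-activated transcription factor, which shares its start with Gm17436, had 6.71, 5.26, 10.6 and 5.59. Tmem50a, a small transmembrane protein, had 5.19, 7.27, 13.7 and 9.75 from only 3, 7, 8 and 8 reads. The HttQ111/+ libraries were the higher in fold enrichment, but their reads were close to those of Htt+/+ ASO. The background was 2.46 in Htt+/+ ASO against 1.31 and 1.24 in HttQ111/+ untreated and ASO.

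Exon members were led by Zfp580, a zinc finger protein, with fold enrichments of 5.37, 7.10, 7.47 and 5.54 at chr7:5004486-5005044, and by Neurl1a, a ubiquitin ligase of neurons, with 8.25, 5.24, 5.48 and 5.69 at chr19:47327535-47328310. Ap1m2, a subunit of the clathrin adaptor AP-1, had 6.76, 4.89, 7.23 and 6.18 from 3 to 5 reads. Rnf126, a ubiquitin ligase, had 4.72, 6.34, 5.20 and 4.47 from 6 to 8 reads. The highest library was HttQ111/+ untreated at Zfp580 and Ap1m2, Htt+/+ untreated at Neurl1a and Htt+/+ ASO at Rnf126.

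Intron members were led by a region inside the gene model Gm17452, whose fold enrichments were 6.47, 10.3, 7.0 and 6.03 and whose 31-mers occur in a median of 8 copies in the genome. Tbc1d16, a Rab GTPase activator, had 7.17, 10.8, 8.04 and 5.97 over the tandem unit shown above. In Slit3, an axon guidance ligand, a region 1497 bp from the start of Mir218-2 had 5.82, 5.47, 6.19 and 5.72 from 3, 3, 3 and 4 reads, and in Csmd2 a region whose 31-mers occur in a median of 131.5 copies had 5.90, 5.56, 6.41 and 5.33. The Slit3 and Csmd2 values were nearly flat across libraries, but they rest on 3 to 5 reads each.

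Among intergenic members of high rank, the region nearest SNORA17 at chr3:8731365-8731910 had fold enrichments of 6.47, 6.08, 6.93 and 5.89. The region nearest 3110083C13Rik at chr14:58648771-58649771 had 5.82, 10.3, 11.8 and 6.99, and that nearest a U6 gene at chr15:45629791-45630178 had 6.96, 6.45, 5.45 and 5.72. In each of these the lowest library held 3 or 4 reads, and only the region near 3110083C13Rik had values that differed widely between libraries.

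**Figure D4:**
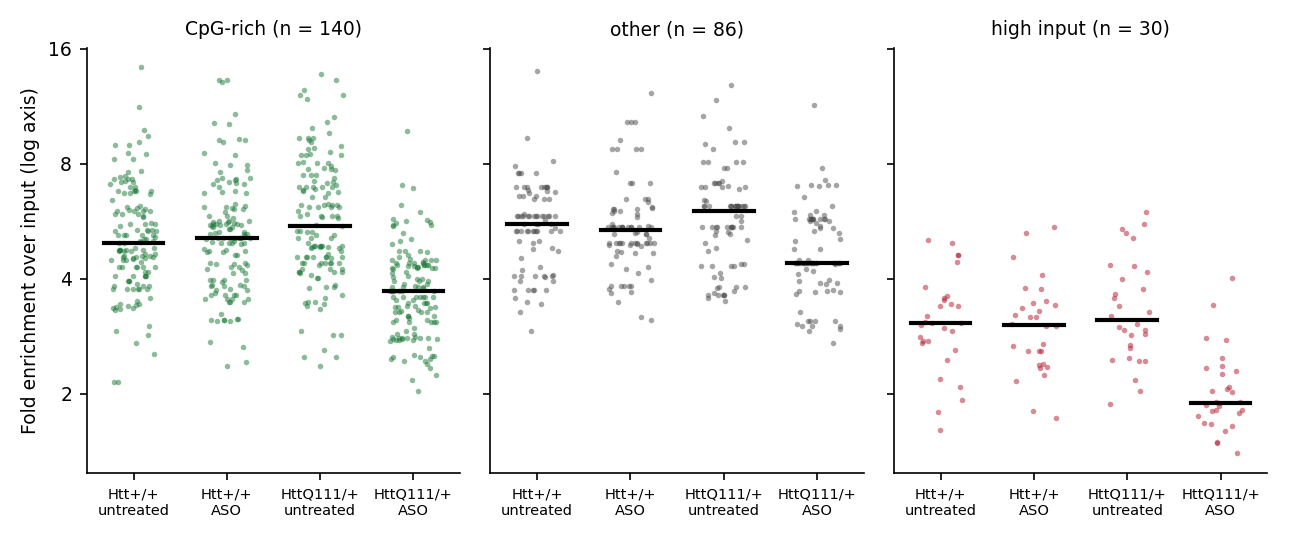
Fold enrichment of each member in each of the 4 libraries, 1 panel per kind, with bars at the medians. The HttQ111/+ ASO library has the lowest median in each panel, 3.71 in CpG-rich, 1.90 in high-input and 4.41 in other members.

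Genes at start-site and exon members covered several roles, and the examples here and in the next paragraph were chosen after their values were seen. Regulators of transcription included Ovol2, with fold enrichments of 6.12, 5.41, 9.61 and 4.26, Wt1, with 4.83, 5.45, 4.16 and 2.87, and, in exons, the immediate early gene Egr4, with 6.01, 6.71, 7.68 and 2.03, the neuronal repressor Scrt1, with 6.01, 5.02, 9.33 and 3.72, and Sp9, with 3.83, 4.72, 4.02 and 3.32. Chromatin readers were represented by Brpf1, with 4.59, 3.83, 6.72 and 4.47, and Baz1b, with 3.83, 5.62, 4.57 and 4.56. In all of these genes except Brpf1 and Baz1b the HttQ111/+ ASO library was the lowest. It was also the lowest in 158 of all 256 members (61.7%).

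Enzymes of cyclic AMP turnover were among the members' genes. Adcy3, which makes cyclic AMP, had fold enrichments of 8.49, 5.67, 4.39 and 3.80. The phosphodiesterases that break it down were represented by Pde8a, with 6.42, 9.10, 4.16 and 4.61, Pde8b, with 5.22, 5.29, 6.22 and 2.77, and Pde3a, with 4.29, 3.64, 4.57 and 2.46. A member lay at 3 of 24 Pde genes (12.5%) against 174 of 21281 protein-coding genes (0.818%), and the family was picked after the genes were seen, so the count is no independent evidence. Th, the rate-limiting enzyme of dopamine synthesis, had 8.11, 7.63, 6.43 and 5.03 in a window with only 5 CG dinucleotides. Camk2n1, an inhibitor of CaMKII, had 7.44, 4.93, 4.56 and 2.43. Ppp1r9b, which encodes the spine protein spinophilin, had 4.49, 4.21, 3.40 and 2.50. Zinc finger genes named Zfp or Zbtb held 6 members' genes of 394, and genes named Lrr 4 of 83.

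The lists drawn up around the study's subject are short, and at the share over all protein-coding genes (1.44%) few of their genes would have a member. Within 20 kb of their start sites, no member was found for any of 6 neuron, 4 astrocyte, 5 oligodendrocyte, 4 microglia or 3 endothelial marker genes, for any of 6 genes the study names (Htt, Ppp1r1b, Pde10a, Rgs9, Sox11 and Foxp2), or for any of 24 Polycomb and REST genes. Of 30 synapse genes only Nrxn2 had a member, the region at Gm14964 described above, and 7 (23.3%) had a region of 3 libraries (Nrxn2, Nlgn2, Dlg1, Dlgap3, Dlgap4, Shank1 and Bsn). Of the Polycomb and REST genes 1 (Rcor1, 4.17%) had a region of 3 libraries, and 0 of the marker genes and of the genes the study names did. Over all protein-coding genes 321 of 22225 (1.44%) had a member within that distance and 1992 (8.96%) a region of 3 libraries.

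The genes with most members near them held only high-input members. Sfi1, a centrin-binding protein, and Gm11399 on chromosome 11 held 5 members between positions 3027851 and 3050413, with backgrounds of 44.3 to 59.3, and the pseudogene AY036118 on chromosome 17 held 4, with backgrounds of 65.6 to 170.9. Gm11400 and Pisd-ps1 held 4 each of the same chromosome 11 regions. The widest member of all was at AY036118, chr17:39979949-39983379, 3431 bp wide, with fold enrichments of 3.40, 3.76, 3.76 and 2.26 from 149, 174, 151 and 156 reads. Gm10807 on chromosome 10 held the next, at 1838 bp, with 4.62, 5.45, 4.32 and 2.79. The member with most reads, near Gm10800 on chromosome 2, had 286, 307, 280 and 337 reads over a background of 346.95 and fold enrichments of only 3.20, 3.21, 3.39 and 2.77. The 3 members of lowest rank were of the same kind, with 1.93, 2.34, 2.45 and 1.4 at Gm16869, 2.75, 3.41, 2.64 and 1.48 at a second AY036118 region and 1.79, 1.80, 2.03 and 1.5 at Gm10717 and Gm10718.

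Over all members, high-input ones included, 31-mers at the summit were in 10 or more copies in 31 (12.1%) against 8.42% of regions of 1 library, and 5 members lay within 10 kb of an assembly gap. Members over a repeat present in 26210 to 26462 copies lay near SNORA48 on chromosome 14, near Klf10 on chromosome 15 and in an intron of Cntnap4. Some genes had 2 CpG-rich members inside them or within 20 kb of their start sites. These were Ier5l, Fgfr2, Slc6a17, Tmem50a, D4Wsu53e, Syf2, Bloc1s3, Trappc6a, Dctpp1 and Sephs2, and a pair could count for several genes. Both members were named after the gene only at Ier5l. The Fgfr2 pair, for instance, was named after Plekha1 and Htra1. Of 237 pairs of neighbouring members, 19 lay within 20 kb of each other.

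The regions closest to the rule from outside had a gap of 14 bp between the merged region and the nearest peak of the fourth library. They were an intron region nearest U6atac on chromosome 1, with fold enrichments of 5.85, 4.23 and 6.29 and a neighbouring HttQ111/+ ASO peak of 4.47, an intron region near Dpysl2, with 3.73, 3.83 and 3.80 and a neighbouring HttQ111/+ ASO peak of 3.10, and Mfi2, with 4.53, 6.75 and 3.88 and a neighbouring HttQ111/+ untreated peak of 2.84. Of the 2006 regions of 3 libraries, 93 had a peak of the fourth within 1 kb. The library missing was HttQ111/+ ASO in 1225 of the 2006 (61.1%), Htt+/+ ASO in 295, Htt+/+ untreated in 276 and HttQ111/+ untreated in 210. Without the HttQ111/+ ASO library, 1479 regions held a peak from each of the other 3, against 461 to 544 when another library was left out.

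Summit positions were compared because a shared region need not mean a shared site. The range of the 4 summits, the highest position minus the lowest, had a median of 174 bp (interval 147 to 201), quartiles of 98 and 308 bp and extremes of 11 and 1007 bp. It was at most 50 bp in 27 members, 100 bp in 70 and 250 bp in 169. The median was 61 bp in high-input members, 178.5 bp in CpG-rich members and 199 bp in the others. By position it was 153 bp at start sites, 156.5 bp in intergenic sequence, 263.5 bp in introns and 265 bp in exons. For a pair of libraries the median distance between summits was 56.5 to 86.5 bp in members and 71 to 109 bp in regions of only that pair. Members had the smaller median in every pair except the Htt+/+ libraries, where it was 79 bp against 76.5 bp. The narrowest peak in a library was 210 to 287 bp wide, so most pairs of summits lay within 1 fragment length of each other. The summit farthest from the other 3 was that of HttQ111/+ ASO in 80 members, Htt+/+ ASO in 72, Htt+/+ untreated in 57 and HttQ111/+ untreated in 47.

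The tightest summits were at mmu-mir-689-2, 11 bp apart at most, at Mxra7, 15 bp, and at intergenic regions near Gm10060, 17 bp, and Gm5614, 18 bp. Except for Mxra7 these were high-input members, with backgrounds of 37.9 to 185.6. At Mxra7, a matrix-remodelling associated gene, the background was 7.77 and fold enrichments were 5.37, 5.24, 5.33 and 4.26 from 13, 12, 11 and 14 reads. Its sequence, shown because 4 summits fell within 15 bp of each other in unique, CpG-rich DNA, is given for chr11:116689072-116689171 beside that of the tighter high-input region, chr16:11144162-11144261, with CG in capitals as before.
Mxra7 (start site): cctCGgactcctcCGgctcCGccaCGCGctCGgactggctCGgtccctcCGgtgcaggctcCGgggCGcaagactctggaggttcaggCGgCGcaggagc
mmu-mir-689-2 (start site): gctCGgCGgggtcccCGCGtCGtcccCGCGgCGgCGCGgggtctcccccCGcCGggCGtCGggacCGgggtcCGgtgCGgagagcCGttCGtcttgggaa

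The widest spread was at Zfp316, where summits ranged over 1007 bp of a region 1823 bp wide built from 9 peaks, with fold enrichments of 7.06, 5.07, 6.97 and 4.32. Cilp2 followed with 816 bp, then an intron of Bmpr1b with 749 bp and Spata5l1 with 747 bp. In such regions the merged interval joins separate summits. A stricter rule, that a summit from each library lie within 250 bp of the others, left 170 regions.

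**Figure D5:**
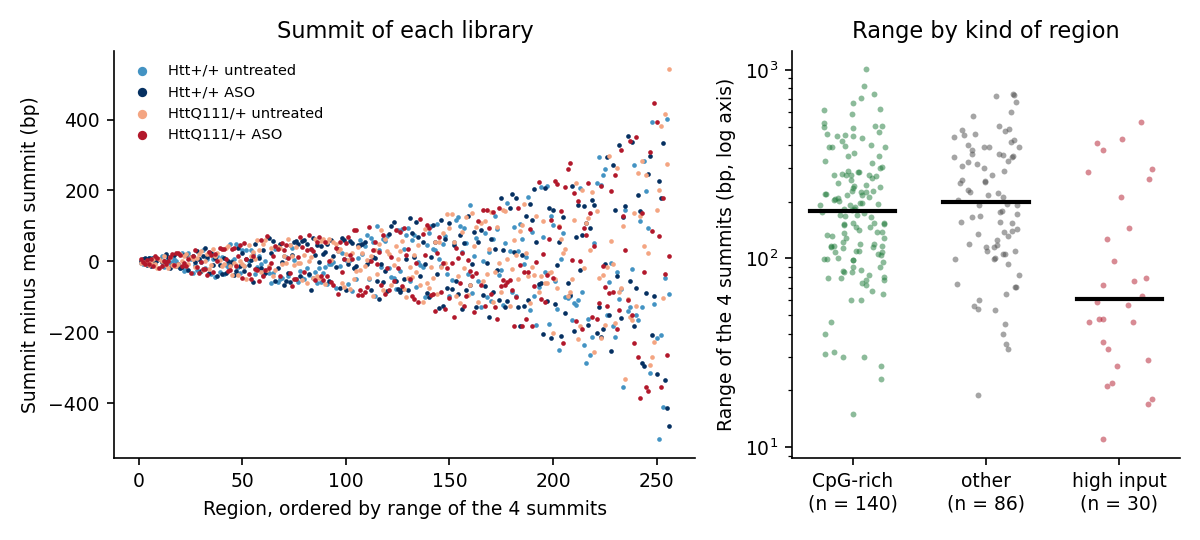
On the left, each library's summit minus the mean of the 4 summits, in bp, for the members in order of their range, and on the right the range on a log axis by kind, with bars at the medians. High-input members have a median range of 61 bp, CpG-rich members 178.5 bp and the others 199 bp.

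The width of the merged members had a median of 583.5 bp, from 297 to 3431 bp, and grows with the number of peaks merged. The mean width of the 4 peaks had a median of 359 bp, against 230 bp for the peaks of regions of 1 library. More than 4 peaks were merged in 19 members.

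The ASO comparison asked whether lowering HTT lowers the ChIP signal. In Htt+/+ the members moved both ways: the log2 ratio of fold enrichment of ASO over untreated had a median of -0.04, 130 of 256 were lower (50.8%, interval 44.5 to 57.1), 28 were at least 1.5-fold lower and 27 at least 1.5-fold higher. Over all 3719 regions with a peak in both libraries, 14.1% were at least 1.5-fold lower and 11.2% at least 1.5-fold higher, against 10.9% and 10.5% of members.

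In HttQ111/+ the fold enrichment of members was mostly lower with ASO. The median log2 ratio was -0.49, 214 of 256 were lower (83.6%, interval 78.5 to 87.9), 43.4% were at least 1.5-fold lower and 7 (2.73%) at least 1.5-fold higher. The same held to a smaller extent for all 2242 regions with a peak in both libraries, whose median was -0.31 and of which 27.2% were at least 1.5-fold lower and 3.79% at least 1.5-fold higher. All 30 high-input members were lower, with a median of -0.71, as were 123 of the 140 CpG-rich members, with a median of -0.59, and 61 of the 86 others, with a median of -0.28. The largest spread was at Ifngr2, a subunit of the interferon gamma receptor, with fold enrichments of 5.90, 13.2, 12.4 and 2.39, followed by Egr4. Equal reads did not give equal fold enrichments in this pair. The recovered factor scaling ChIP reads to the input was 3.30 untreated and 2.67 with ASO. The member near D1Ertd622e had 3 reads and a background of 1 in both libraries. Its fold enrichments there were 6.19 and 4.41, a log2 ratio of -0.49, as was the median of the members.

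This shift moved with the scale. Reads at the summit over library depth put 68.8% of members lower. The median log2 ratio on that scale was -0.31, in members and over all regions with a peak in both libraries. Equal reads in both libraries give that value at the recovered depths, so members with equal reads count as lower. Median reads in members were 7 in HttQ111/+ untreated and 8 in HttQ111/+ ASO. Fold enrichment over each library's median among the members put 48.0% lower. That last scale takes out any shift common to the members, so it cannot show whether one is there. The HttQ111/+ ASO library differed from the other 3 in its narrowest peak, 287 bp against 210 to 230 bp, and in its recovered depth, 1.36 ChIP reads per kb of genome against 1.10 to 1.22, and it is the library that was lowest of the 4 in 158 members (61.7%) and highest in 9. Over all of its regions the median fold enrichment was 4.41, against 4.96 to 5.32 in the other libraries, although the median was 3 reads in each. The part of these differences in the shift was not tested, and with 1 library per group, library and treatment cannot be told apart.

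Fold enrichments of all 4 libraries share 1 merged input. With that in view, 9 members were at least 1.5-fold lower with ASO in both genotypes and 0 were at least 1.5-fold higher in both. Taken separately, 10.9% of members were at least 1.5-fold lower in Htt+/+ and 43.4% in HttQ111/+. The shares at least 1.5-fold higher were 10.5% and 2.73%. Unrelated changes at those shares would put at least as many members lower in both. The 9 are therefore named as a description, and a shared response was not tested. Of the 9, Lrp8, a reelin receptor, had 9.13, 4.71, 5.20 and 3.40, Nfkbiz, an inducible regulator of NF-kappaB, had 6.09, 2.65, 5.12 and 2.81, Camk2n1 had the values given above and Keap1, the sensor that restrains NRF2, had 5.81, 3.84, 6.97 and 2.17. The others were at AB041806 and Fam43b, Defa22, Gm15753, Mboat7 and Tsen34, and Evi5. At the other end, the highest library was within 1.5-fold of the lowest in 55 members, among them Doc2b, a calcium sensor of vesicle release, with 5.16, 5.19, 4.88 and 4.52.

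Between genotypes, HttQ111/+ untreated over Htt+/+ untreated had a median log2 ratio of 0.12, with 53 members at least 1.5-fold higher (20.7%, against 17.7% of all regions with a peak in both) and 30 at least 1.5-fold lower (11.7% against 9.04%). With ASO in both, the median was -0.42, with 93 members (36.3%) at least 1.5-fold lower against 25.5% of all regions and 8 (3.12%) at least 1.5-fold higher against 3.73%. These comparisons share libraries with the ASO comparisons, and the second again rests on the HttQ111/+ ASO library. Over all regions with a peak in both untreated libraries the median log2 ratio was 0.09. Near D1Ertd622e, 3 reads over a background of 1 in every library gave fold enrichments of 5.82, 5.47, 6.19 and 4.41. In reads over depth, the median log2 ratio of members was 0.03 untreated and -0.16 with ASO. Equal reads give those values at the recovered depths. The HttQ111/+ untreated library was the highest of the 4 in 43.4% of members, Htt+/+ ASO in 28.5% and Htt+/+ untreated in 24.6%.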

How the data were processed

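HTT ChIP-seq and matching input were prepared from 4 groups of mouse cortex, 1 library per group, and 4 peak lists were analysed here, while the input samples had no list of their own and were not analysed separately. Labels give 3 mice per pool, and the study's methods describe 2 cortices. Per the labels, reads were converted with bcl2fastq 2.17, aligned with HISAT2 to mm9 and peaks called per library with MACS2, and the aligner version is not given in the sources used here. The methods name mm10 instead; no peak lay past the end of an NCBIM37 (mm9) chromosome, so mm9 was used. The methods state that the ChIP libraries were thinned to the smallest and the 4 inputs merged into a single control. The recovered depths still differed, from 1.10 to 1.36 ChIP reads per kb of genome. Whether these peak lists come from the thinned libraries is therefore not known. The deposited values are peak positions, a score (10 times the −log10 p-value, cut to a whole number), a signal value that is the fold enrichment at the summit, and the −log10 p-value and −log10 q-value.

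Peaks on chromosomes 1 to 19 were merged at an overlap of 1 bp. Of several peaks of a library in a region, the highest by fold enrichment was used. Reads at the summit and input background were recovered from fold enrichment and p for each peak, with 100% of peaks matched to whole reads within 0.01 in −log10 p, and background expressed relative to the genome-wide level. A start site within 1 kb of the midpoint took precedence over exon, then intron, then intergenic sequence. Copies are those of 31-mers in 100 bp at the summit. Intervals on shares are Clopper-Pearson at 95% and those on medians use order statistics. A blacklist was not used here. Python 3.11.15, numpy 2.4.6, pandas 2.3.3 and scipy 1.17.1 were used, and the scripts were tested on simulated data.

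Named regions are the first 4 by rank in each position class, the 4 smallest and 4 largest summit ranges, the 3 widest, up to 5 genes with most members, members at genes of a list, and the 3 members of lowest rank with the 3 closest regions outside the rule. The members, lists and kinds were chosen with earlier results of these data known. Alternatives were other start-site windows, ways of measuring GC, width and spread, a rule on summits, other scales of the ASO ratio and leaving out each library. A region that this rule names is not reported here.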

Additional observations from a re-analysis of the deposited data

Results flagged for a closer look

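Outside chromosomes 1 to 19, in data that the comparisons above did not use, 19 regions held a peak in all 4 libraries. Of these, 10 lay on chromosome X, 0 on Y and 9 on sequences not placed on a chromosome.

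The ASO ratio of fold enrichment moved differently in the 2 genotypes. At the member near D1Ertd622e, equal reads in HttQ111/+ gave a lower fold enrichment with ASO, as described above. In Htt+/+ the median log2 ratio was 0.025 over high-input members and 0.0076 over start-site members. The HttQ111/+ medians were -0.71, with 30 of 30 high-input members lower, and -0.57, with 112 of 126 start-site members lower against 61 of 126 for the other genotype. Over all regions with a peak in both libraries of a pair, 70.8% were lower with ASO in HttQ111/+ and 54.6% in Htt+/+. Taken over each library's median among the members, fold enrichment was lower in 48.0% of all members in HttQ111/+. That scale takes out any shift common to the members, so it cannot show whether one is there. The difference between genotypes was not tested, since each rests on 1 library per group, and the HttQ111/+ ASO library also had the largest minimum peak width, 287 bp, and the highest recovered depth of the 4.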

How the results depend on the processing

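Pairing the ASO and untreated libraries by genotype (2 pairs) was left out, since the fold enrichments to be fitted are the values that chose the members. Of 75 values computed under other settings, 42 stayed within their counting interval (or within 1.5-fold for the count), 32 moved by more and 1 reversed. The reversed value is the share of members lower with ASO in HttQ111/+, which was 48.0% with fold enrichment over each library's median among the members. Since that scale takes out any shift common to the members, the reversal carries no information on such a shift. The share was 68.8% with reads over depth, a scale on which members with equal reads count as lower. Why it differed from the reported share was not tested. With 4 summits within 250 bp the count was 170, the median width 508.5 bp and the median summit range 115 bp. Leaving out each library in turn gave 461 to 1479 regions, with the highest count without HttQ111/+ ASO. The start-site share was then 34.7 to 52.4%, the intergenic share 26.6 to 35.8%, median GC 58.9 to 68.4%, median width 501 to 531 bp and median range 122 to 157 bp. Start sites within 500 bp or 2 kb held 40.2% or 56.6% of members. Median GC was 67.7% in 300 bp at the mean summit and 69.7% over bases common to the 4 libraries. The width of those common bases was 206 bp and the mean peak width 359 bp, and the spread was 79.1 bp as the standard deviation of the summits and 28.8% as the range over the width. Leaving out the high-input members, chosen after seeing the data, left 226 regions and moved none of the 8 values beyond its counting interval or, for the count, beyond 1.5-fold.

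Depth limits these results. Medians of 7 or 8 reads at a summit, and 3 in the members without CpG-rich or high-input sequence in the Htt+/+ untreated library, mean that a change of 1 read is a large share of a peak. With 1 library per group no difference between groups has a replicate error.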

Other observations

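The number of members per chromosome was set beside that of regions of 1 library, and the differences were not tested. Chromosome 7 held 26 members, 10.2% of all members against 7.12% of the regions of 1 library, and chromosome 4 held 24, 9.38% against 6.57%. Chromosomes 13 and 14 held 6 each, 2.34% against 4.79% and 4.72%. Chromosome 8 held 21, of which 7 were high-input members.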
